A study of Mus musculus with 8 samples.

Results

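The 35 genes described here encode the core autophagy machinery of the mouse, with the ULK kinases at its head. They were taken from a list of gene symbols, all 35 matched exactly 1 of the 56953 gene identifiers, and all 35 passed the filter on low counts that left 15669 genes for testing. Whole livers were sequenced from 4 HSC-PCK1-KO samples, in which the gluconeogenic enzyme gene Pck1 was deleted in hepatic stellate cells, and from 4 wild-type control samples. All 8 mice were male and had eaten a fat-rich diet lacking choline (CDHFD), which produces a fatty, inflamed and scarring liver, over 8 weeks. Their age, the Cre driver and the Pck1 allele were not stated in the sources used here. Hepatic stellate cells store vitamin A and turn into collagen-producing cells in injured liver, and they are a minor part of whole liver. In bulk RNA of this kind, fewer cells of a type and less RNA per cell cannot be told apart.

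Autophagy wraps part of the cytoplasm in a double membrane, the autophagosome, and delivers it to the lysosome for breakdown. The ULK complex starts the process when nutrient signals fall, a lipid kinase complex around Beclin 1 marks the growing membrane with phosphatidylinositol 3-phosphate, and ATG2, ATG9 and the WIPI proteins feed and shape it. Conjugation enzymes then attach the small ubiquitin-like proteins of the ATG8 family (LC3 and GABARAP) to the membrane, where cargo receptors such as p62 bind them. In liver the pathway is known for clearing lipid droplets, worn mitochondria and protein aggregates, and much of its control acts on proteins rather than on transcript levels.

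Totals per library ranged from 44695439 to 49477255 counts, and a member of the list had between 185 and 36243 counts in a library. Pck1 itself had 339, 795, 593 and 948 CPM (counts scaled to a common library size) in HSC-PCK1-KO livers, against 1002, 2012, 551 and 1028 CPM in control livers. The groups overlapped, and because hepatocytes make most of the Pck1 transcript, its whole-liver level does not check the deletion. Of 12 marker lists, hepatocyte genes summed to 83807 to 100684 CPM in HSC-PCK1-KO livers and to 83480 to 106263 CPM in control livers, with all 8 markers above 1 CPM. Quiescent stellate cell genes (8 of 8 above 1 CPM) summed to 259 to 298 CPM in HSC-PCK1-KO livers and 291 to 321 CPM in control livers. Activated stellate cell genes (7 of 8) summed to 64.1 to 128 CPM in HSC-PCK1-KO livers and 72.1 to 210 CPM in control livers. The mesothelial list (2 of 6) was the only one of the 12 whose sums did not overlap, at 2.14 to 3.94 CPM in HSC-PCK1-KO livers and 4.37 to 11.4 CPM in control livers (exact two-sided permutation p = 0.0286, unadjusted). Prss2, a pancreatic gene, was the one marker listed at 0 in all 8 libraries. Their part in the results below was not tested.

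Ulk2 had the smallest p of the 35 genes and Ulk1 the next smallest, so the stretch upstream of the start of Ulk2 and Ulk1 is shown before their values. The 250 bases before each RefSeq start site are given 5′ to 3′ on the gene's own strand, from build GRCm38.p6, which is older than the build named for the counts. Capitals mark the GC box, searched as GGGCGG on both strands and so written CCGCCC where it lies on the other strand.
Ulk2, minus strand, chr11:61855093-61855342: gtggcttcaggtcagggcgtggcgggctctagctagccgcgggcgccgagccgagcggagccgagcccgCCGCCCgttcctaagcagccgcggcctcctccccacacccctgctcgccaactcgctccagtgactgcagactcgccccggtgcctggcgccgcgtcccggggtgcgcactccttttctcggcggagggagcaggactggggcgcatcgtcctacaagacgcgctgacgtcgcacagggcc
Ulk1, minus strand, chr5:110810082-110810331: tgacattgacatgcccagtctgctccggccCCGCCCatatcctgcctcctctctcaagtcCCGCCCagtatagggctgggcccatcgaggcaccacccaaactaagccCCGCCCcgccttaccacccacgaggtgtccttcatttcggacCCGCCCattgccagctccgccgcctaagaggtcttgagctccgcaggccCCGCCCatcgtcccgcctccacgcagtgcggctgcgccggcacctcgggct
Ulk2 has 1 GC box in this stretch and Ulk1 has 5. Both stretches are rich in G and C, at 72.8% for Ulk2 and 67.2% for Ulk1, with 31 CpG dinucleotides for Ulk2 and 20 for Ulk1. RefSeq windows of 300 bases (250 before and 50 after a start) were found for 29 of the 35 genes, 32 windows in all. A GC box was present in 20 of them (62.5%), against 35.7% of all 32851 windows, and the median G and C content was 61.7% in the members' windows and 52.7% over all windows. The windows compared were not limited to genes that passed the filter on low counts, as all 35 members did, so these shares do not single out autophagy genes. The E-box CACGTG, the core of the longer CLEAR motif that TFEB binds, occurred in 4 of the 32 windows (12.5%, in Atg3, Atg5, Atg7 and Atg14), against 7.15% of all windows. The full CLEAR palindrome was in 0 of the 32, against 0.326% of all windows, and the FOXO motif GTAAACA was also in 0, against 3.65%. The cyclic AMP response element TGACGTCA was found in 2 windows (6.25%, Atg5 and Atg16l2), against 1.79% of all windows, and the palindromic NRF1 motif in 0, against 0.971%. A match describes these letters only and is not a binding site.

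Ulk2, one of the paired kinases that start autophagosome formation, had 56.9, 52.4, 59.1 and 53.4 CPM in the HSC-PCK1-KO libraries, against 64.6, 79.4, 75.2 and 68.2 CPM in the control libraries. All 4 HSC-PCK1-KO values lay below every control value. The log2 fold change, HSC-PCK1-KO minus control, was -0.37 (SE 0.080, 95% interval -0.55 to -0.20), a level 0.772 times that of control with an interval from 0.682 to 0.873. Its unadjusted p in edgeR's quasi-likelihood test was 0.000848, the seventh smallest of 15669 genes, and the adjusted p was 0.9998, so Ulk2 did not pass the threshold of 0.05. In an exact two-sided permutation test over the libraries p was 0.0286, the smallest that 4 against 4 can give. Any gene whose groups are fully apart has this p, so it adds nothing to the separation itself. DESeq2 gave Ulk2 a log2 fold change of -0.37 and an adjusted p of 0.0779, also short of the threshold, and over 16 alternative fits its log2 fold change ran from -0.42 to -0.32 with adjusted p of at least 0.0779. The mesothelial marker sums given above were the only marker sums whose groups were parted in the same way, and their part in the Ulk2 values was not tested.

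Ulk1, the closest relative of Ulk2 and the kinase that AMPK and mTORC1 act on, had 62.6, 82.6, 83.4 and 84.5 CPM in HSC-PCK1-KO livers, against 85.3, 111.7, 100.4 and 83.1 CPM in control livers. Here the groups overlapped, because 2 HSC-PCK1-KO libraries lay above control replicate 4, and HSC-PCK1-KO replicate 1 stood far below the other 3 of its group. The log2 fold change was -0.28 (SE 0.12, 95% interval -0.55 to -0.0089) with an unadjusted p of 0.0441 and an adjusted p of 0.9998 in edgeR. Without HSC-PCK1-KO replicate 1 it was -0.19, and without control replicate 2 it was also -0.19, and in neither case was the unadjusted p under 0.05. Nor was it without HSC-PCK1-KO replicate 2, without control replicate 3 or with 1 surrogate variable, which left 11 of 16 alternative fits with a p under 0.05. The log2 ratio of Ulk2 to Ulk1 counts within a library was -0.49 ± 0.25 in HSC-PCK1-KO and -0.40 ± 0.085 in control livers (SD, n = 4). The exact permutation p was 0.543, so over all libraries no difference between the 2 kinases in their genotype contrast was detectable. HSC-PCK1-KO replicate 1 was at -0.14, above every control value (-0.40, -0.49, -0.42 and -0.29). The other HSC-PCK1-KO libraries, at -0.66, -0.50 and -0.66, lay below every control value. Over 9 alternatives the difference in this ratio ran from -0.21 to -0.031, with an exact permutation p of at least 0.0571.

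The other genes listed with the kinase complex had log2 fold changes between -0.012 and 0.11. Ulk3, a related kinase, averaged 11.4 ± 0.70 CPM in HSC-PCK1-KO livers, with 11.5 ± 1.41 CPM in control livers (SD, n = 4). Rb1cc1, which encodes the scaffold FIP200, averaged 29.7 ± 2.94 CPM in HSC-PCK1-KO livers, with 29.3 ± 1.91 CPM in control livers. Atg13, the adaptor that binds both kinases, averaged 55.8 ± 6.29 CPM in HSC-PCK1-KO livers, against 56.3 ± 5.64 CPM in control livers, and its log2 fold change was -0.012. Atg101, which stabilises ATG13, had a log2 fold change of 0.11, and its 95% interval ran from -0.13 to 0.36. None of these 4 genes had an unadjusted p under 0.05, and their intervals each lay within 1.5-fold of control in both directions.

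**Figure D1:**
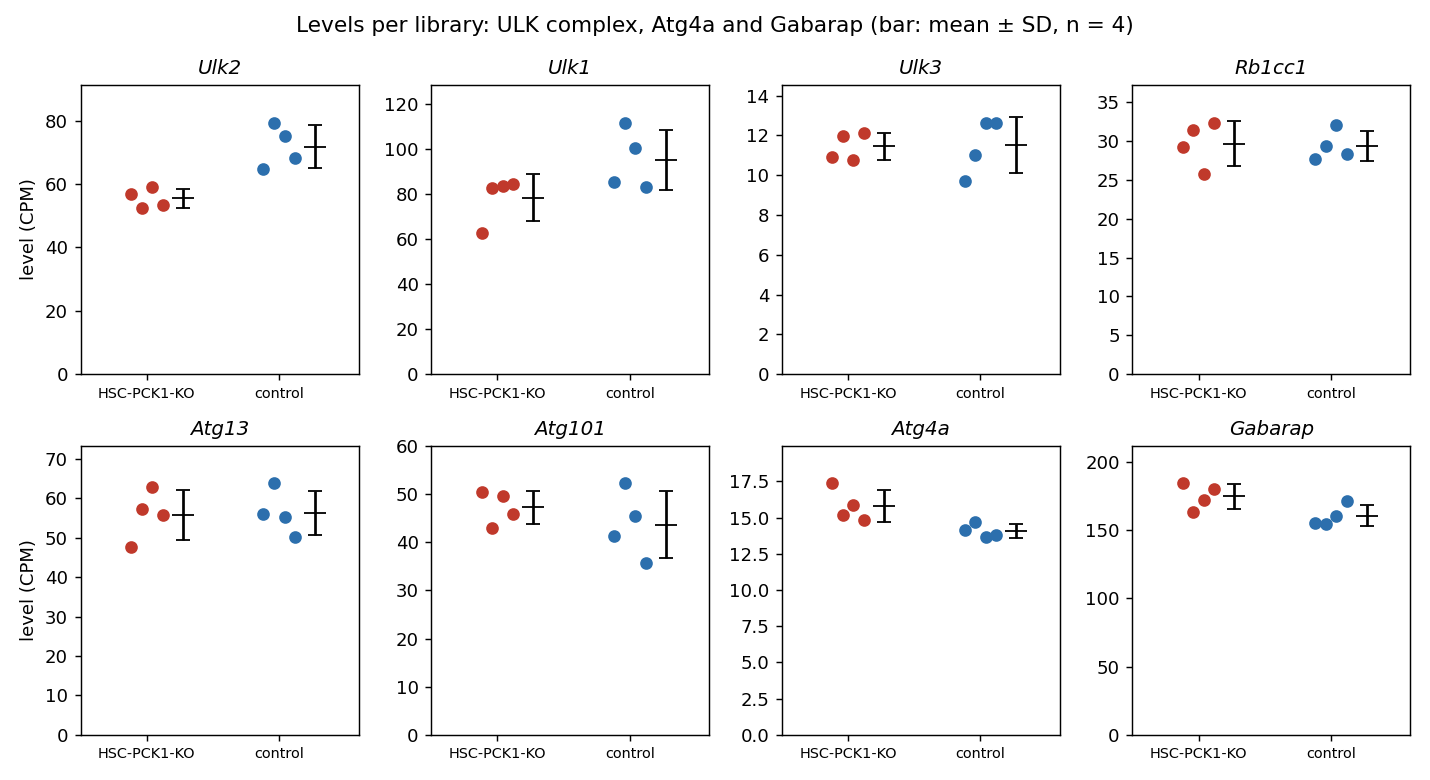
Levels in CPM (vertical axes, from 0) of the 6 genes listed with the ULK complex and of Atg4a and Gabarap. Points are single HSC-PCK1-KO libraries (red, left) and control libraries (blue, right), with the mean and SD beside them (n = 4). The Ulk2 points of the genotypes are fully apart, from 52.4 to 59.1 CPM in HSC-PCK1-KO against 64.6 to 79.4 CPM in control livers, those of Atg4a are apart by a narrow gap, and those of the other 6 genes overlap.

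Over the whole list, 0 of 35 genes passed an adjusted p of 0.05 in edgeR, as did 0 of all 15669 genes (0%). An unadjusted p under 0.05 was found for 3 of the 35 (8.57%), against 2.36% of all genes tested, and against 2.28% of the 9478 genes whose mean level lay within the members' range. Ulk2 and Ulk1 were on the negative side, where 1.34% of all genes had such a p, and Atg4a on the positive side, where 1.02% did. Groups did not overlap in 2 of the 35, Ulk2 and Atg4a (5.71%), against 1.53% of all genes and 1.42% of genes in the members' range of levels. By direction, the groups were apart upward in 0.721% and downward in 0.811% of all genes. Both counts are small, and the members were listed with the Ulk2 result already known. A positive log2 fold change was found in 18 of the 35, against 48.2% of all genes, and the median was 0.00042, against -0.0055 over all genes. DESeq2 called 0 of the 35 (0.0383% of all genes called, which is 6 genes) and had 2 at an unadjusted p under 0.05 (2.34% of all genes). The limma-voom fit called 0 of the 35 (0% of all genes) and had 3 at an unadjusted p under 0.05 (2.37%).

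For 34 of the 35 the 95% interval of the fold change lay within 1.5-fold of control in both directions, as it did for 66.8% of all genes and for 91.4% of genes in the members' range of levels. The exception was Atg16l2, described below. For all 35 the interval excluded a 2-fold difference in either direction. Among the members the SE had a median of 0.088 on the log2 scale, against 0.13 over all genes.

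**Figure D2:**
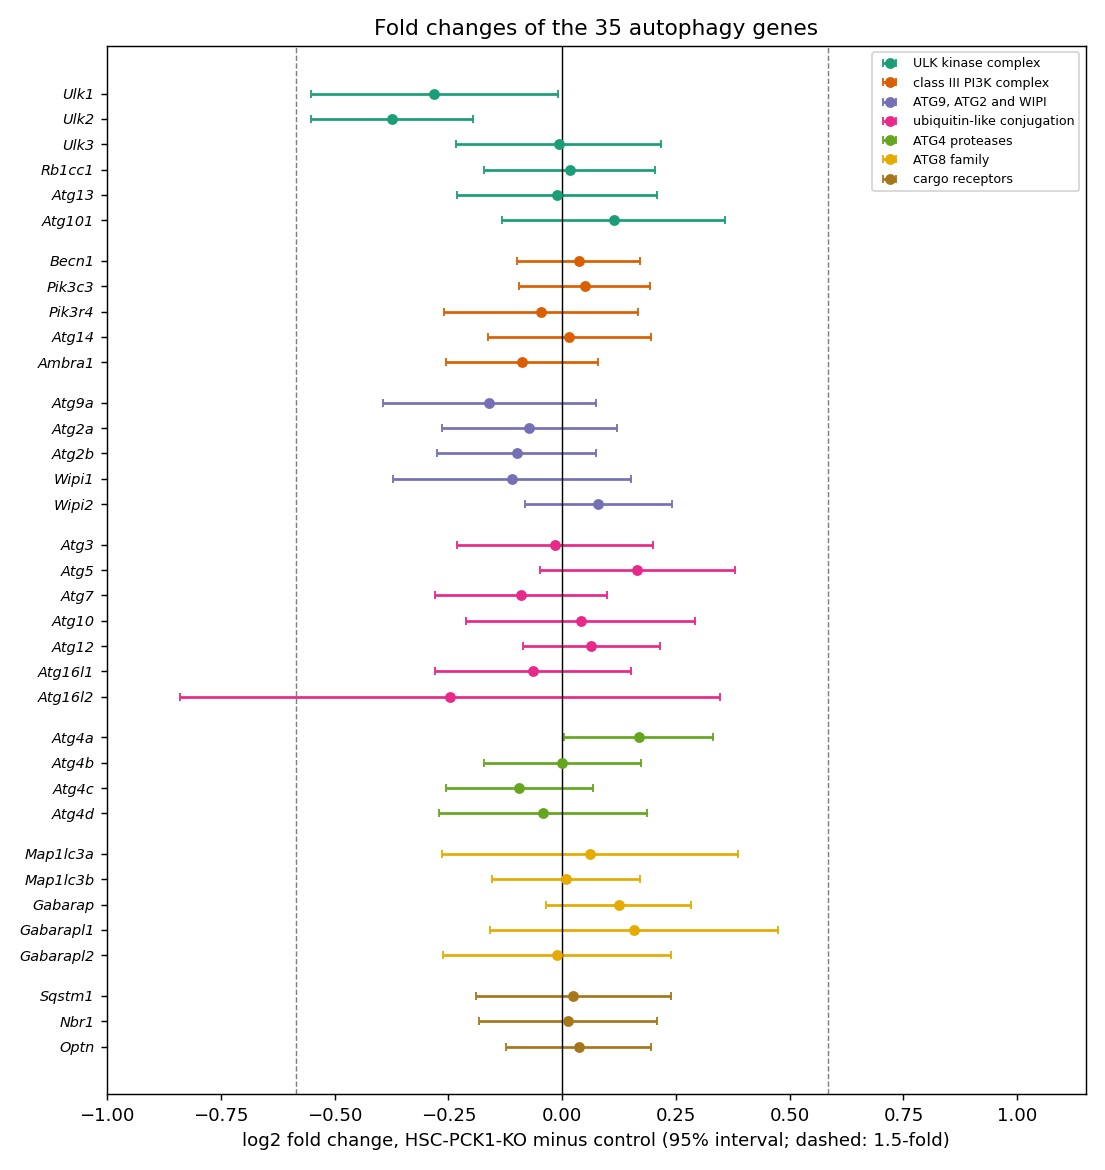
Log2 fold change of each of the 35 genes, HSC-PCK1-KO minus control (horizontal axis), with the 95% interval from edgeR, grouped by role from top to bottom, and dashed lines at 1.5-fold. The intervals of Ulk2, Ulk1 and Atg4a do not reach 0 before adjustment, and the interval of Atg16l2 alone crosses a dashed line.

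The 5 genes of the lipid kinase complex had log2 fold changes from -0.088 to 0.049, and none had an unadjusted p under 0.05. Becn1, which encodes the scaffold Beclin 1 and had the highest level in CPM of the group, had 62.4, 65.1, 65.3 and 61.2 CPM in HSC-PCK1-KO livers, against 59.7, 65.8, 60.7 and 61.4 CPM in control livers. The 2 ranges lay almost on top of each other, and the 95% interval of its log2 fold change ran from -0.099 to 0.17. Pik3c3, the catalytic lipid kinase VPS34, averaged 17.9 ± 0.52 CPM in HSC-PCK1-KO livers, with 17.3 ± 0.81 CPM in control livers (SD, n = 4). Pik3r4, its regulatory subunit, and Atg14, the subunit that directs the complex to autophagosomes, had log2 fold changes of -0.047 and 0.016. Ambra1, which binds Beclin 1 and helps activate ULK1, was the member of the group farthest from 0, at -0.088 (95% interval -0.26 to 0.079). In the annotation 43.9% of the exon bases of Becn1 lie across from exons of Cntd1 on the opposite strand. Cntd1 was listed at under 1 CPM in every library, and how reads over this stretch were assigned is not known.

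Of the genes that supply membrane, 4 of 5 had a negative log2 fold change and none an unadjusted p under 0.05. Atg9a, the lipid scramblase of the ATG9 vesicles, had 32.01, 36.2, 36.8 and 37.4 CPM in HSC-PCK1-KO livers, against 38.2, 49.0, 35.7 and 36.2 CPM in control livers. One control library, replicate 2, was high, and the log2 fold change of -0.16 was -0.045 without it. A noncoding transcript, Gm29253, covers 31.8% of the exon bases of Atg9a on the same strand and was listed at 0 in all libraries, so how its shared reads were assigned is not known. Atg2b, one of the paired lipid transfer proteins that bridge membranes, had 25.9, 31.1, 27.3 and 30.1 CPM in HSC-PCK1-KO livers, against 30.1, 33.5, 29.2 and 29.8 CPM in control livers. Its ranges crossed, and the log2 fold change was -0.10 (95% interval -0.27 to 0.074), and that of its partner Atg2a was -0.072. Wipi2, which binds phosphatidylinositol 3-phosphate and recruits ATG16L1, had 90.5, 94.9, 99.3 and 83.2 CPM in HSC-PCK1-KO livers, against 83.4, 90.3, 90.5 and 84.0 CPM in control livers. Its relative Wipi1 averaged 15.6 ± 1.52 CPM in HSC-PCK1-KO livers, with 16.9 ± 2.76 CPM in control livers (SD, n = 4), and the log2 ratio of Wipi2 to Wipi1 was 2.56 ± 0.075 in HSC-PCK1-KO livers, against 2.38 ± 0.18 in control livers. That ratio had an exact permutation p of 0.0571, adjusted to 0.257 over the 9 ratios computed. In control replicate 2 the ratio was 2.11, and in the other control libraries 2.42 to 2.51. With a library left out, the difference of 0.18 ran from 0.091 to 0.22.

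The conjugation enzymes form 2 ubiquitin-like systems, and all 7 genes had an unadjusted p above 0.05. Atg3, the enzyme that transfers LC3 to lipid, had 80.9, 67.9, 61.9 and 63.2 CPM in HSC-PCK1-KO livers, against 75.7, 71.4, 66.6 and 63.1 CPM in control livers. Both groups spread over much the same range. Atg5, which is joined to ATG12, had 64.0, 50.6, 51.4 and 54.5 CPM in HSC-PCK1-KO livers, against 46.5, 49.2, 56.1 and 44.97 CPM in control livers. HSC-PCK1-KO replicate 1 was the highest and control replicate 3 the second highest, so the ranges crossed, and the log2 fold change was 0.16 (95% interval -0.050 to 0.38). It was 0.084 without HSC-PCK1-KO replicate 1 and 0.24 without control replicate 3, the one alternative of 16 with an unadjusted p under 0.05. Atg12 averaged 36.5 ± 2.73 CPM in HSC-PCK1-KO livers, with 34.9 ± 0.96 CPM in control livers (SD, n = 4). Atg7, the activating enzyme of both systems, had a log2 fold change of -0.091, and Atg10, which joins ATG12 to ATG5 and had the lowest level in CPM of the 35, had one of 0.041.

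The 2 genes for the ATG16 partner of that conjugate differed in how steady they were. Atg16l1, the main form, averaged 29.3 ± 4.05 CPM in HSC-PCK1-KO livers, with 30.6 ± 1.26 CPM in control livers (SD, n = 4). Atg16l2 had 6.57, 12.8, 17.6 and 10.5 CPM in HSC-PCK1-KO livers, against 14.1, 16.9, 12.3 and 13.02 CPM in control livers. Its highest and its lowest value were both in HSC-PCK1-KO livers, and its SE of 0.26 was the largest of the 35. The value of -0.25 had a 95% interval from -0.84 to 0.35, and it ranged from -0.50 without HSC-PCK1-KO replicate 3 to -0.049 without HSC-PCK1-KO replicate 1, and leaving out replicate 3 was the one of 16 alternatives that gave an unadjusted p under 0.05 (0.0489 in edgeR).

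The ATG4 proteases cut ATG8 proteins to expose the end that is joined to lipid and later release them. Atg4a had 17.4, 15.2, 15.9 and 14.8 CPM in HSC-PCK1-KO livers, against 14.2, 14.7, 13.7 and 13.8 CPM in control livers. The groups did not overlap, though the lowest HSC-PCK1-KO value and the highest control value were close. The log2 fold change was 0.17 (SE 0.074, 95% interval 0.0042 to 0.33), with an unadjusted p of 0.0454 and an adjusted p of 0.9998 in edgeR. Without HSC-PCK1-KO replicate 1 it was 0.12, and 7 of 16 alternative fits kept an unadjusted p under 0.05. Atg4a is uncertain because 34.7% of its 100-base stretches also occur elsewhere, mainly in its pseudogene Atg4a-ps, which was counted at no more than 0.264 CPM in any library. Atg4b, the most active of the proteases on LC3, had 37.3, 35.3, 37.8 and 32.1 CPM in HSC-PCK1-KO livers, against 34.6, 39.2, 35.7 and 33.0 CPM in control livers, and a log2 fold change of 0.00042. Within a library the log2 ratio of Atg4a to Atg4b was -1.17 ± 0.076 in HSC-PCK1-KO and -1.34 ± 0.076 in control livers (SD, n = 4). The groups were apart (exact permutation p = 0.0286), and the p was 0.257 after adjustment over the 9 ratios, none of which could pass unless several reached that smallest p together. Atg4c had 13.5, 13.3, 12.9 and 13.2 CPM in HSC-PCK1-KO livers, against 14.5, 15.3, 13.1 and 13.7 CPM in control livers, with one control library inside the HSC-PCK1-KO range. Atg4d had a log2 fold change of -0.042, and 19.3% of its exon bases lie across from Kri1 on the opposite strand.

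The ATG8 genes, the part of the machinery that coats the membrane, had log2 fold changes from -0.012 to 0.16, 4 positive and 1 negative. Gabarapl1 had the highest level in CPM of the 35, with 583, 595, 524 and 737 CPM in HSC-PCK1-KO livers, against 447, 492, 653 and 593 CPM in control livers. The ranges crossed widely, and the log2 fold change was 0.16 (95% interval -0.16 to 0.47). It ranged from 0.054 without HSC-PCK1-KO replicate 4 to 0.26 without control replicate 3. In the annotation 28.3% of its exon bases lie across from 1700101I11Rik on the opposite strand, which had 1.43 to 4.57 CPM in HSC-PCK1-KO livers, with 2.09 to 4.35 CPM in control livers. Gabarap had 184.2, 163.0, 172.4 and 179.8 CPM in HSC-PCK1-KO livers, against 155.4, 154.5, 160.4 and 171.5 CPM in control livers. Only control replicate 4 reached into the HSC-PCK1-KO range, and the log2 fold change was 0.12 (SE 0.072, 95% interval -0.036 to 0.28, exact permutation p = 0.0571). Map1lc3b, the LC3 gene most used as a marker of autophagosomes, averaged 91.3 ± 4.77 CPM in HSC-PCK1-KO livers, with 90.8 ± 6.47 CPM in control livers (SD, n = 4). Map1lc3a averaged 36.4 ± 4.62 CPM in HSC-PCK1-KO livers, against 34.9 ± 6.54 CPM in control livers. The means of Gabarapl2 were 53.5 ± 6.96 CPM in HSC-PCK1-KO livers and 53.96 ± 6.86 CPM in control livers.

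Set per kilobase of exon, levels can be compared roughly between genes. The lengths came from GENCODE M21, which may differ from the unstated annotation of the counts. The share of 100-base stretches also found in other genes, on either strand, was 18% for Gabarapl1 and 13.7% for Sqstm1. It was 0% for Gabarap and Map1lc3a. In CPM per kilobase the mean levels of Gabarapl1 were 303 in HSC-PCK1-KO and 271 in control livers, and those of Sqstm1 were 154 in HSC-PCK1-KO and 151 in control livers. Gabarap followed with 94.8 in HSC-PCK1-KO livers and 87.0 in control livers, and Map1lc3a with 30.8 in HSC-PCK1-KO livers and 29.6 in control livers. With the length of the principal transcript, a choice made after the data were seen, Gabarapl1, Sqstm1 and Gabarap were again the highest 3. Wipi2, Nbr1, Atg101, Map1lc3b and Atg3 then stood above Map1lc3a, so the order below Gabarap depends on the length used. Atg16l2 was the lowest of the 35 under both lengths, with all exons at 1.40 in HSC-PCK1-KO livers and 1.66 in control livers. Per length, Gabarapl1 made up 65.1 ± 3.66% of the ATG8 family in HSC-PCK1-KO and 63.8 ± 4.06% in control livers (SD, n = 4). Gabarap made up 20.5 ± 1.68% in HSC-PCK1-KO livers and 20.7 ± 1.84% in control livers, and each of the other 3 genes at most 8.81% in any library. With the principal transcript, Gabarapl1 still led with 59.0% in HSC-PCK1-KO livers and 57.6% in control livers. Under that length Map1lc3b exceeded Map1lc3a, by 6.42% to 5.86% in HSC-PCK1-KO livers and by 6.95% to 6.15% in control livers, while with all exons Map1lc3b was the lowest of the family.

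**Figure D3:**
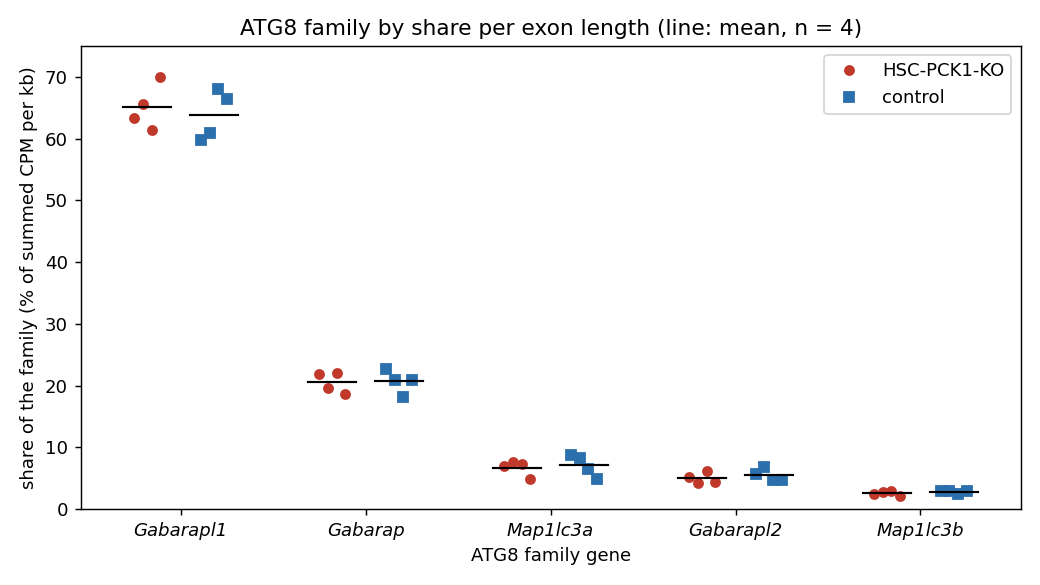
Share of each ATG8 family gene in the summed CPM per kilobase of exon of the family (vertical axis, percent, from 0), for HSC-PCK1-KO libraries (red circles, left of each pair) and control libraries (blue squares, right), with the mean as a line (n = 4). Gabarapl1 holds 59.7% to 69.9% in every library, and the points of the genotypes overlap for all 5 genes.

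The cargo receptors did not separate by genotype. Sqstm1, which encodes p62, a protein that carries ubiquitin-tagged cargo and is itself degraded by autophagy, had 457, 583, 538 and 484 CPM in HSC-PCK1-KO livers, against 500, 476, 507 and 544 CPM in control livers. Its lowest and highest value were both in HSC-PCK1-KO livers, and the log2 fold change was 0.025 (95% interval -0.19 to 0.24). Exons of Mrnip lie across from 17.3% of the exon bases of Sqstm1, at 7.62 to 9.57 CPM in HSC-PCK1-KO livers, with 6.60 to 8.83 CPM in control livers. Nbr1, a relative of p62, averaged 190.7 ± 7.68 CPM in HSC-PCK1-KO livers, with 189.0 ± 20.7 CPM in control livers (SD, n = 4). Optn, which encodes optineurin, a receptor for damaged mitochondria, averaged 79.1 ± 4.93 CPM in HSC-PCK1-KO livers, against 77.1 ± 4.65 CPM in control livers.

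Single libraries stood out across many of the genes. HSC-PCK1-KO replicate 1 held the lowest value of the 8 libraries for 10 of the 35 genes, while control replicate 2 held the highest value for 16. HSC-PCK1-KO replicate 1 also held the highest value for 5 genes. Such counts were not made over all genes tested, so they cannot be called particular to the 35. Control replicate 1 held the lowest value for 6 genes and the highest for 0. Its sum over the 35 genes, 2521.5 CPM, was the lowest of the 8. The TMM scaling factors of HSC-PCK1-KO replicate 1 (0.942) and control replicate 2 (0.949) were the 2 lowest of the 8, and control replicate 2 had the lowest total. Recruited macrophage markers summed to 54.7 CPM in HSC-PCK1-KO replicate 1, to 36.2 CPM in control replicate 2 and to 69.2 to 217 CPM in the other 6 libraries. The same libraries were the 2 lowest for activated stellate cell markers, at 64.1 CPM in HSC-PCK1-KO replicate 1, with 72.1 CPM in control replicate 2, and for cholangiocyte markers, at 30.8 CPM in HSC-PCK1-KO replicate 1, with 28.6 CPM in control replicate 2. Their part in these values was not tested. Summed over the 35 genes, the level was 2750 ± 80.8 CPM in HSC-PCK1-KO livers, with 2694 ± 121.7 CPM in control livers (SD, n = 4).

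**Figure D4:**
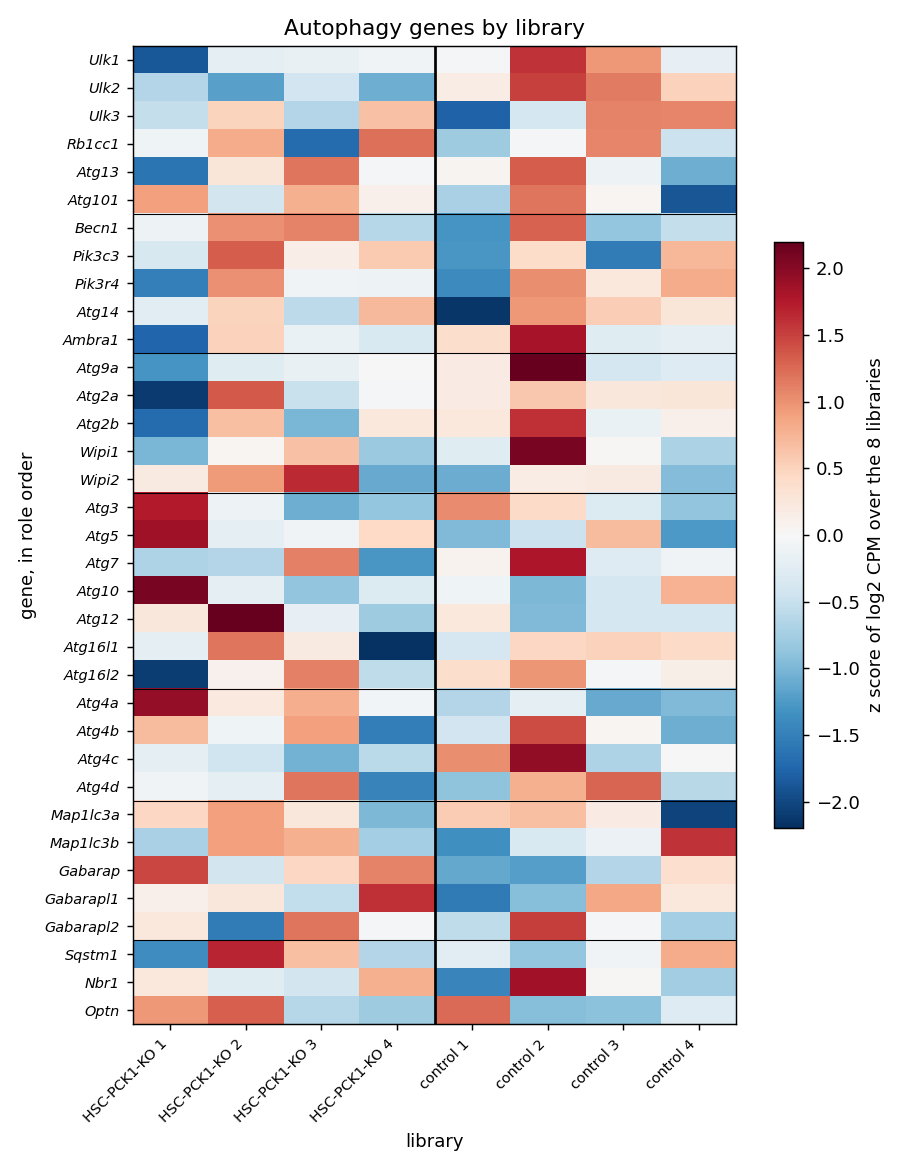
Level of each of the 35 genes in each library as a z score of log2 CPM over the 8 libraries (colour scale; red above and blue below the gene's mean), with genes by role from top to bottom, HSC-PCK1-KO libraries on the left and control libraries on the right of the black line. The row of Ulk2 is blue throughout on the left and red throughout on the right, whereas most rows mix colours within a genotype and control replicate 2 is the reddest column, with the highest value for 16 genes.

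Genes around the core machinery were taken from 6 further lists, and none of their tested genes passed an adjusted p of 0.05 in edgeR. The lists' median log2 fold changes ran from -0.020 for transcription factors to 0.025 for other selective receptors, against -0.0055 over all genes. Among the nutrient sensors that act upstream of ULK1, 11 of 34 had a positive and 23 a negative log2 fold change, where 48.2% of all genes were positive. An unadjusted p under 0.05 was found for 1 of them (2.94%), near the 2.36% of all genes. That gene was Fnip1, a partner of folliculin at the lysosome, with 31.8, 30.2, 28.2 and 38.6 CPM in HSC-PCK1-KO livers, against 26.97, 26.8, 28.2 and 27.1 CPM in control livers. The groups were barely apart between HSC-PCK1-KO replicate 3 and control replicate 3, and the log2 fold change was 0.24 (SE 0.093). It was 0.14 without HSC-PCK1-KO replicate 4, and 13 of 16 alternative fits kept an unadjusted p under 0.05. Mtor, the kinase that holds ULK1 in check, averaged 48.5 ± 5.35 CPM in HSC-PCK1-KO livers, with 54.0 ± 3.84 CPM in control livers (SD, n = 4), and Sesn1, a stress-induced inhibitor of mTORC1, averaged 12.8 ± 0.95 CPM in HSC-PCK1-KO livers, against 14.4 ± 1.94 CPM in control livers.

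Among 18 other genes of autophagosome formation, 11 had a positive log2 fold change (48.2% of all genes did) and 1 (5.56%) an unadjusted p under 0.05, against 2.36% of all genes. Wdr45, which encodes WIPI4, a partner of ATG2, had 7.86, 7.10, 6.21 and 6.65 CPM in HSC-PCK1-KO livers, against 6.05, 5.54, 4.65 and 5.05 CPM in control livers. Every HSC-PCK1-KO value lay above every control value. The log2 fold change was 0.39 (SE 0.12, 95% interval 0.12 to 0.65), with an unadjusted p of 0.00873 and an adjusted p of 0.9998 in edgeR, and it stayed between 0.32 and 0.45 over 16 alternative fits. Bcl2l1, an inhibitor of Beclin 1, and Ei24, a membrane protein of the endoplasmic reticulum, had log2 fold changes of 0.15 and 0.13.

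Other selective receptors gave 2 of 18 genes (11.1%) with an unadjusted p under 0.05, on opposite sides, against 2.36% of all genes. Tex264, a receptor for the endoplasmic reticulum, had 87.7, 74.6, 81.4 and 81.1 CPM in HSC-PCK1-KO livers, against 69.5, 71.96, 72.6 and 69.1 CPM in control livers, with the groups apart and a log2 fold change of 0.20 (SE 0.066). Stbd1, which binds glycogen and GABARAPL1, had 47.2, 59.0, 67.9 and 57.2 CPM in HSC-PCK1-KO livers, against 87.1, 74.0, 66.4 and 68.6 CPM in control livers. HSC-PCK1-KO replicate 3 lay inside the control range, and the log2 fold change was -0.36 (SE 0.12, 95% interval -0.62 to -0.093). Ncoa4, the receptor for ferritin, had a log2 fold change of -0.16. None of the 14 genes of fusion with the lysosome had an unadjusted p under 0.05, and those with the smallest p were Tecpr1, Vps16 and Stx17, at -0.20, -0.085 and 0.081.

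In the lysosome and TFEB target list 14 of 34 had a positive log2 fold change, against 48.2% of all genes, and 1 (2.94%) had an unadjusted p under 0.05, near the 2.36% of all genes. Atp6v0a1, a subunit of the proton pump that acidifies lysosomes, had 44.8, 50.4, 52.4 and 47.6 CPM in HSC-PCK1-KO livers, against 53.1, 60.7, 57.9 and 55.0 CPM in control livers. The groups were apart, with a log2 fold change of -0.22 (SE 0.073, 95% interval -0.38 to -0.054). They were also apart, by a narrow gap, for the pump subunit Atp6v1a, at -0.073. Groups were thus apart in 2 of 34 genes (5.88%), against 1.53% of all genes. The other pump genes listed, Atp6ap1, Atp6v0c, Atp6v0d1, Atp6v1b2 and Atp6v1h, had log2 fold changes from -0.061 to 0.026. After Atp6v0a1, the lysosomal hydrolases Gla and Neu1 had the next smallest p, with log2 fold changes of 0.29 and 0.18. Of 15 transcription factors reported to act on autophagy genes 1 (6.67%) had an unadjusted p under 0.05, against 2.36% of all genes. This was Creb1, which kept such a p in 9 of 16 alternative fits and averaged 15.6 ± 0.73 CPM in HSC-PCK1-KO livers, with 13.8 ± 0.44 CPM in control livers (SD, n = 4). Foxo4 and Ppara had log2 fold changes of 0.12 and -0.15.

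**Figure D5:**
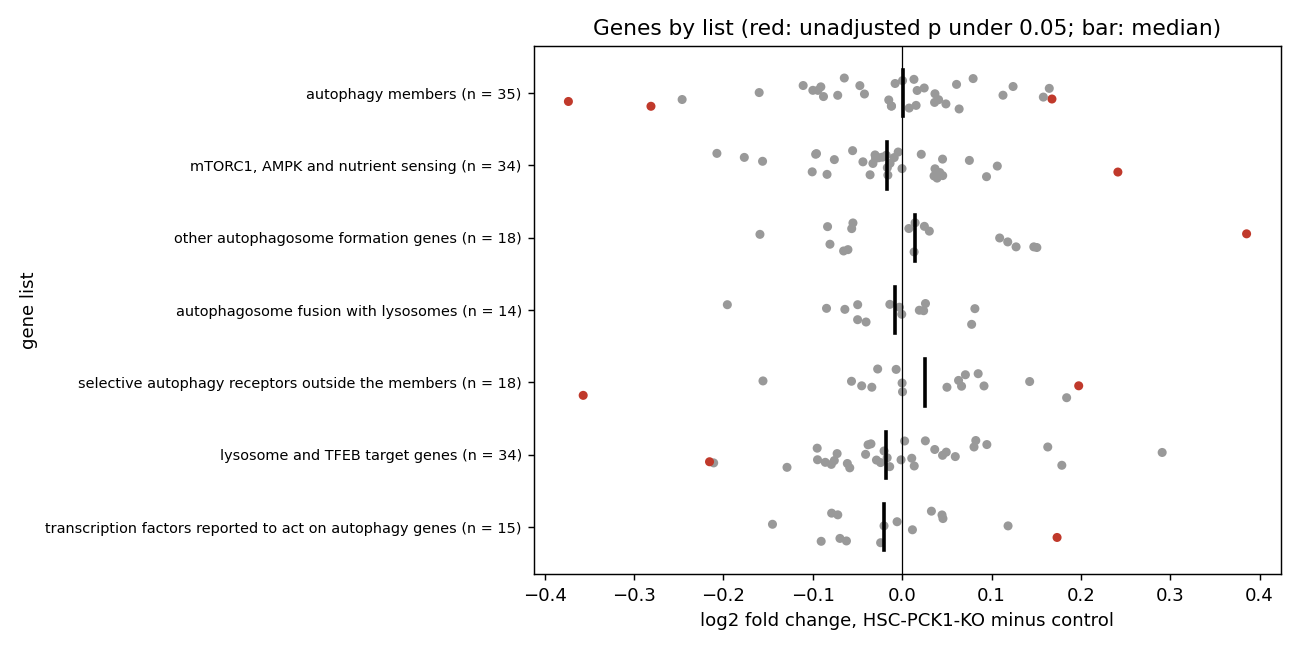
Log2 fold change of each tested gene, HSC-PCK1-KO minus control (horizontal axis), in the 35 autophagy genes and the 6 further lists (rows), with the list median as a black bar and genes with an unadjusted p under 0.05 in red. The medians lie between -0.020 and 0.025, and the red genes fall on both sides of 0.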

How the data were processed

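Whole-liver messenger RNA of 4 HSC-PCK1-KO and 4 control mice was sequenced as strand-marked paired-end libraries, per the labels' protocols, all in one batch per the labels. The authors deposited raw gene counts, one file per library, with versioned Ensembl identifiers. The submitters' processing notes name build GRCm39 and R 4.3.2. The aligner, counting tool, annotation and strand setting were not stated in the sources used here, so reads of overlapping or near-identical genes may have been split. The design text calls the 4 libraries of a group biological replicates.

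Symbols came from the GENCODE M21 annotation, which matched 52029 of 56953 identifiers, and 1 of 253 listed symbols (Ddit3) matched no single identifier and was left out. Genes were filtered with filterByExpr, scaled by TMM and tested for genotype with edgeR 4.0.16 (quasi-likelihood test, robust, no covariate) in R 4.3.3, with Benjamini-Hochberg adjustment over 15669 genes. The SE is the log2 fold change divided by the square root of F. CPM used TMM-scaled totals. The fit was also run on counts simulated from its own means and dispersions. The outcome is not reported here, and no result rests on it. Exact two-sided permutation tests over libraries served single values, and 0.5 counts were added in ratios of paralogs.

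The members and lists were chosen with earlier results of these data known. All 35 members are named, and given per library are the 8 with the smallest p and the one with the highest CPM in each role group. The 3 genes with the smallest p are named from each other list, and the other proton pump genes are named from the lysosome list. Atg16l2 and some of the genes from other lists were given per library after their values were seen. The alternative settings tried were RLE or upper quartile factors, 2 other filters, an adjusted p of 0.1, DESeq2 1.42.0, limma 3.58.1 (voom with sample weights), a replicate block, 1 surrogate variable (sva 3.50.0), 2 counts added in ratios and leaving out each library.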

Additional observations from a re-analysis of the deposited data

Results flagged for a closer look

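Each of the 35 genes was examined in each genotype for a library far from the other 3 of its group, which made 70 groups, and 3 were flagged, where chance gives about 3.5. Ulk1 had 62.6 CPM in HSC-PCK1-KO replicate 1, while the other HSC-PCK1-KO libraries had 82.6 to 84.5 CPM. Atg7 had 59.4 CPM in control replicate 2, while the other control libraries had 49.8 to 51.3 CPM. Atg16l1 had 28.7 CPM in control replicate 1, while the other control libraries had 31.1 to 31.4 CPM.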

How the results depend on the processing

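In edgeR 0 genes passed an adjusted p of 0.05, DESeq2 called 6, and leaving out 1 library gave 0 to 1 (1 without control replicate 1). No alternative called any of the 35 members, where the threshold of 0.1 was applied to the edgeR fit only. The DESeq2 adjusted p of Ulk2, 0.0779, was under 0.1. Members with an unadjusted p under 0.05 numbered 3, and 1 to 3 with a library left out (1 without HSC-PCK1-KO replicate 1 or 2, which was Ulk2). The labels state no pairing of the libraries. Deviations of same-numbered libraries correlated at -0.0333, -0.329, -0.0589 and 0.0576, inside the range of differently numbered ones (-0.345 to 0.355). Such values cannot exclude a pairing. The replicate block called 0 genes and gave 2 members an unadjusted p under 0.05. Of 35 members, 19 kept their sign in every alternative. The log2 fold change of Atg13 turned positive with limma (0.0029), as did the log2 fold change of Gabarapl2 with 1 surrogate variable (0.0054), and the cause was not tested. With a library left out, the log2 fold change crossed 0 for 16 members: Ulk3 (-0.081 to 0.046), Rb1cc1 (-0.027 to 0.079), Atg13 (-0.073 to 0.056), Pik3r4 (-0.11 to 0.0093), Atg14 (-0.049 to 0.051), Wipi1 (-0.17 to 0.0091), Atg3 (-0.11 to 0.031), Atg10 (-0.034 to 0.078), Atg16l1 (-0.14 to 0.022), Atg4b (-0.032 to 0.050), Atg4d (-0.11 to 0.023), Map1lc3a (-0.064 to 0.14), Map1lc3b (-0.027 to 0.057), Gabarapl2 (-0.086 to 0.079), Sqstm1 (-0.040 to 0.076) and Nbr1 (-0.035 to 0.087). So did the log2 ratios Atg2b/Atg2a (-0.049 to 0.010), Atg16l2/Atg16l1 (-0.45 to 0.0068), Map1lc3a/Map1lc3b (-0.13 to 0.16), Gabarap/Gabarapl1 (-0.13 to 0.042) and Atg4c/Atg4d (-0.14 to 0.031). With 4 libraries a group and a median SE of 0.088, differences of the size seen for most members were not detectable at this precision.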
